A study of Mus musculus with 74 samples.

Results

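Cholesterol biosynthesis and its control by the transcription factor SREBP2 were followed through 29 genes, taken by symbol from a deposited table of 49912 genes. The members were the enzymes of the mevalonate and sterol routes, 4 regulators of SREBP2 processing, the sterol carrier gene Stard4 and 4 genes of acetyl-CoA supply and fatty acid desaturation. All 29 symbols were found, and 28 passed the filter on low counts in each fraction. Idi1, which isomerises isopentenyl diphosphate, did not pass. It had 8 counts in all microglia libraries together and 38 in all nonmicroglia libraries, and it was at 0 in 35 and 34 of 37 libraries.

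Brains of 37 mice were dissociated, and from each animal the viable Cd11b-positive cells, labelled microglia, and all remaining viable cells, labelled other and here called nonmicroglia, were sorted and sequenced separately as 3' tag libraries, 74 in all. The mice were Trem2 +/+ (wild type), Trem2 +/- (heterozygous knockout) or Trem2 -/- (knockout), where Trem2 encodes a lipid-sensing receptor of microglia. They received control diet or 0.2% cuprizone, a copper chelator that kills oligodendrocytes and strips myelin, for 5 or 12 weeks, so that 12 groups arose. Groups held 3 mice, except 4 in each heterozygous group at 12 weeks and 2 in the wild-type control group at 12 weeks. Each group held 1 male. The nonmicroglia fraction pools oligodendrocyte-lineage cells, astrocytes, endothelial and other cells, so fewer cells of a type and less RNA per cell cannot be told apart in it. The labels give neither the mice's age nor their strain.

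Cholesterol is built from acetyl-CoA through mevalonate, farnesyl diphosphate, squalene and lanosterol, and lanosterol is then trimmed and reduced to cholesterol. When sterol in the endoplasmic reticulum is low, SCAP carries SREBP2 to the Golgi, where it is cut and released to switch on these genes. INSIG proteins hold SCAP back when sterol is high. The brain makes its own cholesterol because lipoproteins do not cross the blood-brain barrier, and most of it lies in myelin made by oligodendrocytes, with astrocytes as the other main producer.

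The upstream stretches of 3 members are shown because SREBP2 binds sterol-responsive promoters beside NF-Y and Sp1, and because these 3 genes are the ones of the sterol route whose levels are described in most detail here. RefSeq promoter entries for the GRCm38.p6 build existed for 23 of the 29 members. Each run is the 250 bases before the start in RefSeq, 5' to 3' on the gene's strand, with capitals on matches to TCACNCCAC (SRE-like), CCAAT (the NF-Y box) and GGGCGG (a GC box), searched on both strands. Msmo1 lies at chr8:64733579-64733828 (minus strand), Hmgcs1 at chr13:119690101-119690350 (plus strand) and Srebf2 at chr15:82147019-82147268 (plus strand).
Msmo1: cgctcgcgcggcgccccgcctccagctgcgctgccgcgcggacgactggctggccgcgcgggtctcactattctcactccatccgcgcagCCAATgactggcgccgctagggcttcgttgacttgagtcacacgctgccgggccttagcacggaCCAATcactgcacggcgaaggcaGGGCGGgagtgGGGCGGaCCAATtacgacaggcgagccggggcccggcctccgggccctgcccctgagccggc
Hmgcs1: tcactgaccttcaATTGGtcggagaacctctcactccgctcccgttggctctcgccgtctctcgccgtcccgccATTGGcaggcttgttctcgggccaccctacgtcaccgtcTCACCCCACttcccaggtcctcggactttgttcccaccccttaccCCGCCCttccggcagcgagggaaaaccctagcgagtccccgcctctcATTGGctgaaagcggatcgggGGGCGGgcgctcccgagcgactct
Srebf2: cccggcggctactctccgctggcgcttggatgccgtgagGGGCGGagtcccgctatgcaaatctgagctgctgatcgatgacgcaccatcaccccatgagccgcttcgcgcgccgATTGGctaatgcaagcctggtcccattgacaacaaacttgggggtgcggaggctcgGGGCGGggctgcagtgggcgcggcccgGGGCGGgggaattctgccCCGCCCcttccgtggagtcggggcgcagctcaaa
Msmo1 held 3 CCAAT and 2 GC boxes, Hmgcs1 held 3 and 2 with 1 SRE-like match, and Srebf2 held 1 CCAAT and 4 GC boxes. CCAAT was present in 65.5% of the 29 member windows and in 33.8% of all 32851 windows of that length. GGGCGG was present in 79.3% and 32.7%. TCACNCCAC was present in 3.4% and 1.1%, with Hmgcs1 as the single member. RefSeq and the GENCODE bounds given for these genes below place the start differently: 214 bases of the Msmo1 window and 88 of the Srebf2 window lie inside the GENCODE gene, and 0 of the Hmgcs1 window. These are letter matches, and no binding was measured.

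Libraries held 1043961 to 3945694 counts in microglia and 1255465 to 3441041 in nonmicroglia. The summed level of 9 microglial markers was 25925 to 54144 CPM (the count over the library total, on the usual CPM scale) in microglia and 337 to 896 CPM in nonmicroglia, and no marker of any list was at 0 in every library. The microglia libraries also held 6 neutrophil markers, summing to 101 to 7869 CPM, and 6 border macrophage markers, summing to 234 to 1504 CPM. The part of such cells in the values called microglia was not tested. Wild-type microglia had 418 to 989 CPM of Trem2, heterozygous ones 308 to 987 and knockout ones 109 to 250.4, below every animal of the other genotypes. Residual tags at Trem2 in knockouts may lie outside the deleted stretch, which the labels do not give. Along the first principal component, 4 microglia and 2 nonmicroglia libraries stood apart.

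The first comparison set microglia against nonmicroglia of the same wild-type mice. Among the members that passed the test, nearly all were lower in microglia. On control diet, with 5 animals, 11 members were lower and 1 was higher at an adjusted p under 0.05 (edgeR's quasi-likelihood test with Benjamini-Hochberg adjustment over all genes, as everywhere below). Of all 18408 genes tested, 17.8% were lower and 11.7% were higher in microglia. The median log2 difference of the 28 members was -1.75, against -0.24 over all genes. DESeq2 called 18 members and limma 16. Fads2 had no count in the microglia of any wild-type control. The CPM values of the 2 fractions did not overlap for 10 of 29 members on control diet and 6 on cuprizone, all higher in nonmicroglia. The matching share over all genes was not computed, so these counts do not set the members apart from other genes.

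Among the mevalonate enzymes, Hmgcs1 (ENSMUSG00000093930.2, chr13:119690379-119708260), the synthase that makes HMG-CoA, had 51.7, 63.8, 93.8, 99.2 and 105 CPM in the microglia of the 5 wild-type controls. Nonmicroglia of the same mice had 337, 401, 429.7, 437 and 472 CPM. Every nonmicroglia value lay above every microglia value, and the log2 difference was -2.15 ± 0.27 (SE, adjusted p = 1.54e-10 by edgeR). Acat2, Mvk, Pmvk, Mvd and Fdps, which make acetoacetyl-CoA and carry mevalonate to farnesyl diphosphate, had log2 differences between -2.10 (Fdps) and -0.78 (Pmvk), with edgeR adjusted p-values of 0.133 (Acat2) to 0.483 (Pmvk), and none was called. Ggps1, which makes geranylgeranyl diphosphate for protein prenylation, had -0.13 and was not called.

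Of the 4 genes between farnesyl diphosphate and the first step after lanosterol, 3 were lower in microglia. Sqle, the squalene epoxidase that performs an oxygen-dependent rate-limiting step, had 0, 0, 0.55, 1.92 and 8.24 CPM in control microglia and 6.37, 20.9, 30.3, 59.9 and 79.9 CPM in nonmicroglia. The highest microglia library exceeded the lowest nonmicroglia library, and the log2 difference was -4.35 ± 0.95 (edgeR adjusted p = 1.23e-04). Fdft1, the squalene synthase, differed by -4.04 ± 1.03 (edgeR adjusted p = 0.00111), and Cyp51, the lanosterol demethylase, by -1.49 ± 0.40 (0.00193). Exons of Fdft1 overlap Ctsb on the other strand and exons of Cyp51 overlap Akap9, so their tags could be shared if counting ignored strand. The same holds for Hmgcs1 with Gm48342, Ggps1 with Arid4b, Lss with 4930483K19Rik, Scap with 5830462I19Rik and Lbr with Dnah14. Exons of Fdps overlap Gm43738, those of Tm7sf2 overlap Vps51, those of Lbr overlap Gm26004 and those of Scd2 overlap Mir5114 on the same strand. Lss, the lanosterol synthase, was not called (edgeR adjusted p = 0.85).

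After lanosterol, Msmo1, the sterol C4-methyl oxidase, had 29.2, 45.0, 57.3, 62.0 and 62.7 CPM in control microglia and 236, 306, 335, 382 and 394 CPM in nonmicroglia. The 2 sets did not overlap, and the log2 difference was -2.52 ± 0.32 (edgeR adjusted p = 8.47e-11). Sc5d, the lathosterol desaturase, was lower by -2.01 ± 0.59 (edgeR adjusted p = 0.00538), and Nsdhl, the C4 decarboxylase, by -2.57 ± 0.96 (0.0318). Ebp, the sterol delta8-delta7 isomerase, was higher in microglia by 1.10 ± 0.37 (edgeR adjusted p = 0.0173). Its microglia values of 61.5 to 172 CPM overlapped the nonmicroglia values of 34.8 to 104. Lbr and Tm7sf2, the C14 reductases, Hsd17b7, the C3 ketoreductase, and Dhcr7, the 7-dehydrocholesterol reductase, were not called, with edgeR adjusted p-values from 0.0889 (Hsd17b7) to 1 (Tm7sf2). Stard4, which carries sterol between membranes, was not called (edgeR adjusted p = 0.101).

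Among the regulators, Srebf2 (ENSMUSG00000022463.7, chr15:82147181-82205379), which encodes SREBP2, had 66.0, 104, 106, 149.9 and 161 CPM in control microglia. Nonmicroglia had 323, 429, 439, 513 and 557 CPM, all above the microglia values, and the log2 difference was -1.74 ± 0.27 (edgeR adjusted p = 6.02e-08). Insig1, a sterol-sensing retention factor and itself an SREBP target, had 0, 0, 3.30, 3.77 and 6.34 CPM against 7.64, 13.8, 22.3, 30.7 and 57.4 CPM, without overlap, and its nonmicroglia mean was 9.83 times its microglia mean (edgeR adjusted p = 0.00254). Both 12-week microglia libraries were at 0, so the fitted difference is not given. Its paralog Insig2, at 0.97, and Scap, the escort of SREBP2, at -0.73, were not called.

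Of the lipid genes, Scd2 (ENSMUSG00000025203.5, chr19:44293674-44306864), a stearoyl-CoA desaturase that supplies oleate to myelin lipids, had 122, 161, 163, 211 and 258 CPM in control microglia. Nonmicroglia had 2344, 2523, 2745, 3429 and 7099.7 CPM, far above every microglia value, and the log2 difference was -4.12 ± 0.27 (edgeR adjusted p = 2.95e-24). Fads2, the delta-6 desaturase, was at 0 in 5 of 5 microglia libraries and at 8.56, 14.65, 17.01, 18.3 and 31.6 CPM in nonmicroglia. With a floor of 3 counts over the 5 microglia libraries, or 0.39 CPM, it was at least 46.2-fold higher in nonmicroglia (edgeR adjusted p = 1.23e-05). Acly, the ATP citrate lyase, had 0.83 (edgeR adjusted p = 0.0509) and Fads1, the delta-5 desaturase, -0.54, with neither called.

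**Figure D1:**
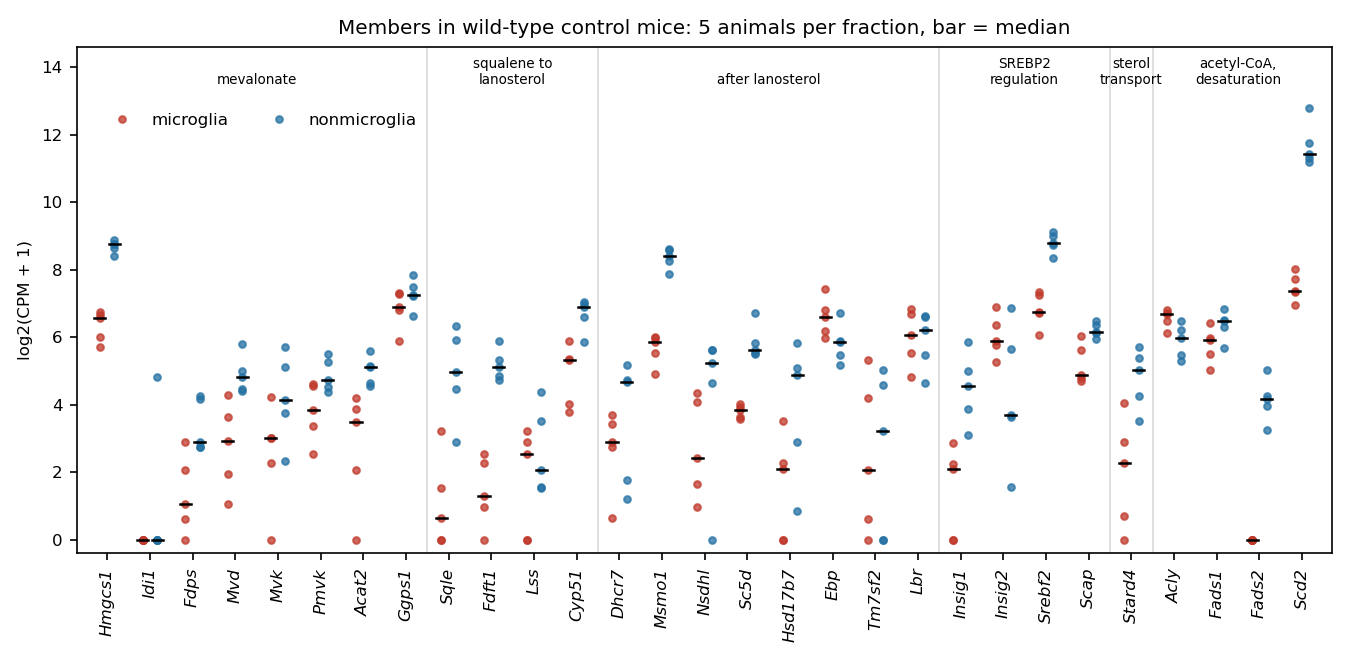
Levels of the 29 members on a log2(CPM + 1) axis in microglia (red) and nonmicroglia (blue) of the 5 wild-type mice on control diet, grouped by step. Points are animals and bars are medians. The 2 fractions do not overlap for 10 of the 29 members: Hmgcs1, Acat2, Mvd, Fdft1, Msmo1, Sc5d, Srebf2, Insig1, Fads2 and Scd2. The share of all genes without overlap was not computed. Fads2 is at 0 in every microglia library, and Idi1 is at 0 in nearly all libraries.

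On cuprizone, with 6 wild-type mice, 12 members were lower and 2 were higher in microglia, where 21.9% of all genes were lower and 12.9% were higher. The members' median was -1.21, against -0.31 over all genes, and DESeq2 called 16 and limma 17. Hmgcs1 (-1.23 ± 0.24), Sqle (-4.38 ± 0.81), Msmo1 (-1.67 ± 0.27), Srebf2 (-1.23 ± 0.23) and Scd2 (-2.96 ± 0.23) were again lower. In microglia Sqle ran from 0 to 7.56 CPM (median 1.33) and Scd2 from 185 to 443 (median 355), below the nonmicroglia ranges of 27.5 to 69.1 CPM (median 44.0) and 2294 to 3957 (median 3418). Fads2 was at 0 in 4 of the 6 microglia libraries and reached 8.90 CPM, which overlapped its 6.42 to 20.2 CPM in nonmicroglia, and its nonmicroglia mean was 6.31 times its microglia mean (edgeR adjusted p = 4.14e-04). Ggps1, Hsd17b7 and Fads1 were called lower here, at -0.73, -2.61 and -1.26, and Insig2 higher, at 1.16. Nsdhl and Insig1 were not called on cuprizone.

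Calls for 8 of the 12 members on control diet (Hmgcs1, Sqle, Cyp51, Msmo1, Insig1, Srebf2, Fads2 and Scd2) and for 6 of the 14 on cuprizone (Hmgcs1, Sqle, Msmo1, Srebf2, Fads2 and Scd2) held in every alternative run. Leaving out single animals gave 10 to 13 calls on control diet and 8 to 12 on cuprizone. On control diet, Nsdhl was lost without animal 1930, 1932, 5512 or 9145 (-2.81 to -2.19), Ebp without 5512 or 9145 (0.48 to 0.96) and Sc5d without 1932 (-1.79). On cuprizone, Cyp51 was lost without 3917 or 743, Fdft1 without 3917, Sc5d without 2474 or 3917, and Ebp without 8043 or 9144. Fads1 was lost without 1746, 2474 or 743, Ggps1 without 1746, 3917, 743 or 9144, Hsd17b7 without 1746, 2474, 3917 or 743, and Insig2 without 1746, 2474, 3917, 8043 or 9144. With the animal as a block, Nsdhl and Ebp on control diet had adjusted p-values of 0.115 and 0.0655 and Fdft1 on cuprizone 0.0674 by edgeR. Without the libraries that stood apart, Fdft1, Nsdhl and Ebp lost their calls on control diet (edgeR adjusted p = 0.0522, 0.132 and 0.178).

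The next comparison asked what cuprizone did in nonmicroglia, with the 3 genotypes given equal weight. Msmo1 fell at both times and was the only member called. Its level lay below that of the lowest control animal in 9 of 9 cuprizone mice at 5 weeks. Most other members had negative differences that did not pass the test.

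Msmo1 (ENSMUSG00000031604.10, chr8:64718139-64733792) had 236, 306 and 382 CPM in wild-type, 299.6, 336 and 381 in heterozygous and 299, 339 and 348 in knockout nonmicroglia after 5 weeks of control diet. After 5 weeks of cuprizone it had 150.3, 160.5 and 209.5 CPM in wild type, 94.7, 118 and 208 in heterozygotes and 130.2, 158 and 218 in knockouts. The highest cuprizone value of 218 CPM lay below the lowest control value of 236 CPM. The log2 difference was -1.05 ± 0.17 (edgeR adjusted p = 4.70e-05), and this call held in every alternative run. It was the only member whose diets did not overlap in either fraction at either time. Of all genes tested, 0.189% did not overlap in nonmicroglia at 5 weeks and 0.106% at 12 weeks, and 0.163% in microglia at each time.

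At 12 weeks, Msmo1 had 335 and 394 CPM in wild-type, 230.04, 241, 287 and 343 in heterozygous and 260.4, 269 and 334 in knockout controls. On cuprizone it had 153, 159.6 and 219.6 CPM in wild type, 178, 222, 251 and 266 in heterozygotes and 163, 171 and 207 in knockouts. The diets overlapped through the heterozygotes, and the log2 difference was -0.68 ± 0.17 (edgeR adjusted p = 0.0351). The call at 12 weeks was lost in 10 of 19 runs that left out 1 animal (1744, 1746, 1748, 1932, 2476, 3917, 6296, 7674, 944 or 9542), with differences of -0.68 to -0.62 and adjusted p-values up to 0.171. The difference between the falls at 12 and 5 weeks was 0.37 ± 0.24 and was not called.

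At 5 weeks, 1 of 28 members was called lower, where 0.166% of 16915 genes were, and 20 of 28 members were negative, against 46.7% of all genes. The members' median was -0.23, against 0.05 over all genes. At 12 weeks, 1 member was called lower, where 0.177% of genes were, 23 of 28 were negative, against 47.3% of all genes, and the median was -0.32 against 0.04. Members passed an unadjusted p of 0.05 in 4 cases at 5 weeks and 5 at 12 weeks, all lower, where 7.58% and 8.41% of all genes did in either direction. DESeq2 called 2 members at 5 weeks and 3 at 12 weeks, and limma 2 at each.

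Hmgcs1 in nonmicroglia ran from 241 to 437 CPM (median 337) on 5 weeks of control diet and from 139 to 378 (median 222) on cuprizone, with overlap. Its log2 difference was -0.52 ± 0.15 (edgeR adjusted p = 0.130). DESeq2 and limma called it, with adjusted p-values of 0.00162 and 0.0405. The 3 wild-type cuprizone mice had 219.8, 220.0 and 222 CPM, below their controls at 337, 401 and 437, while heterozygous mice on cuprizone had 295, 312 and 378 against 301, 364 and 367. Knockouts had 139, 213 and 224 CPM on cuprizone and 241, 301 and 308 on control diet. At 12 weeks the difference of Hmgcs1 was -0.29 ± 0.15.

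Srebf2 had 323 to 557 CPM (median 431) on control diet and 245 to 425 (median 315) on cuprizone at 5 weeks, and 371 to 616 (median 439) and 226 to 407 (median 323) at 12 weeks. Its log2 differences were -0.45 ± 0.15 and -0.55 ± 0.15, neither called by edgeR (adjusted p = 0.305 and 0.100). At 12 weeks, DESeq2 and limma called Srebf2, with adjusted p-values of 0.00345 and 0.0458. The diets overlapped at both times, but each cuprizone median lay below the matching control median.

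Among the other steps in nonmicroglia, Cyp51 had -0.44 ± 0.22 and -0.41 ± 0.22 at the 2 times, Sc5d -0.26 ± 0.28 and -0.83 ± 0.27 and Scap -0.16 ± 0.26 and -0.63 ± 0.26. Fdft1 had -0.91 ± 0.47 and -0.54 ± 0.46, and Ebp -0.58 ± 0.30 and -0.33 ± 0.30. None was called by edgeR. Lss, with 0 to 39.9 CPM in nonmicroglia, was called by DESeq2 alone at 12 weeks (adjusted p = 0.0331). Scd2, with 2172 to 4307 CPM on control diet and 2294 to 3988 on cuprizone at 5 weeks, had -0.02 ± 0.14, and at 12 weeks it had 0.01 ± 0.14.

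The summed level of the 28 members other than Scd2 was 1879 to 2296 CPM on control diet and 1504 to 1956 on cuprizone at 5 weeks, and 2005 to 2535 and 1573 to 2053 at 12 weeks. The post-lanosterol group gave 509 to 661 against 302 to 469.7 CPM at 5 weeks, without overlap. At 12 weeks it gave 428 to 685 against 353 to 494 CPM, with overlap. Msmo1 made up most of the group's fall at 5 weeks. Its mean went from 325 to 161 CPM, and that of the whole group from 577 to 384 CPM. The mevalonate group gave 426 to 726 against 338 to 627 CPM at 5 weeks and 485 to 909.9 against 431 to 726 CPM at 12 weeks, with overlap at both times. In the same libraries 9 astrocyte markers summed to 5899 to 8058 CPM on control diet and 3976 to 5707 on cuprizone at 5 weeks, without overlap, and to 3728 to 7928 and 2803 to 4695 at 12 weeks. The 10 mature oligodendrocyte markers summed to 7024 to 34075 and 7178 to 20006 CPM at 5 weeks and to 18322 to 48631 and 12666 to 31681 at 12 weeks. The 6 precursor markers summed to 383 to 1040 and 669 to 1618 CPM at 5 weeks and to 415 to 1826 and 777 to 1769 at 12 weeks. RNA integrity numbers at 5 weeks were 7.2 to 9.3 on control diet and 7.3 to 8.8 on cuprizone, with a median of 8.0 in each. The part of these markers in the fall of Msmo1 was not tested.

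**Figure D2:**
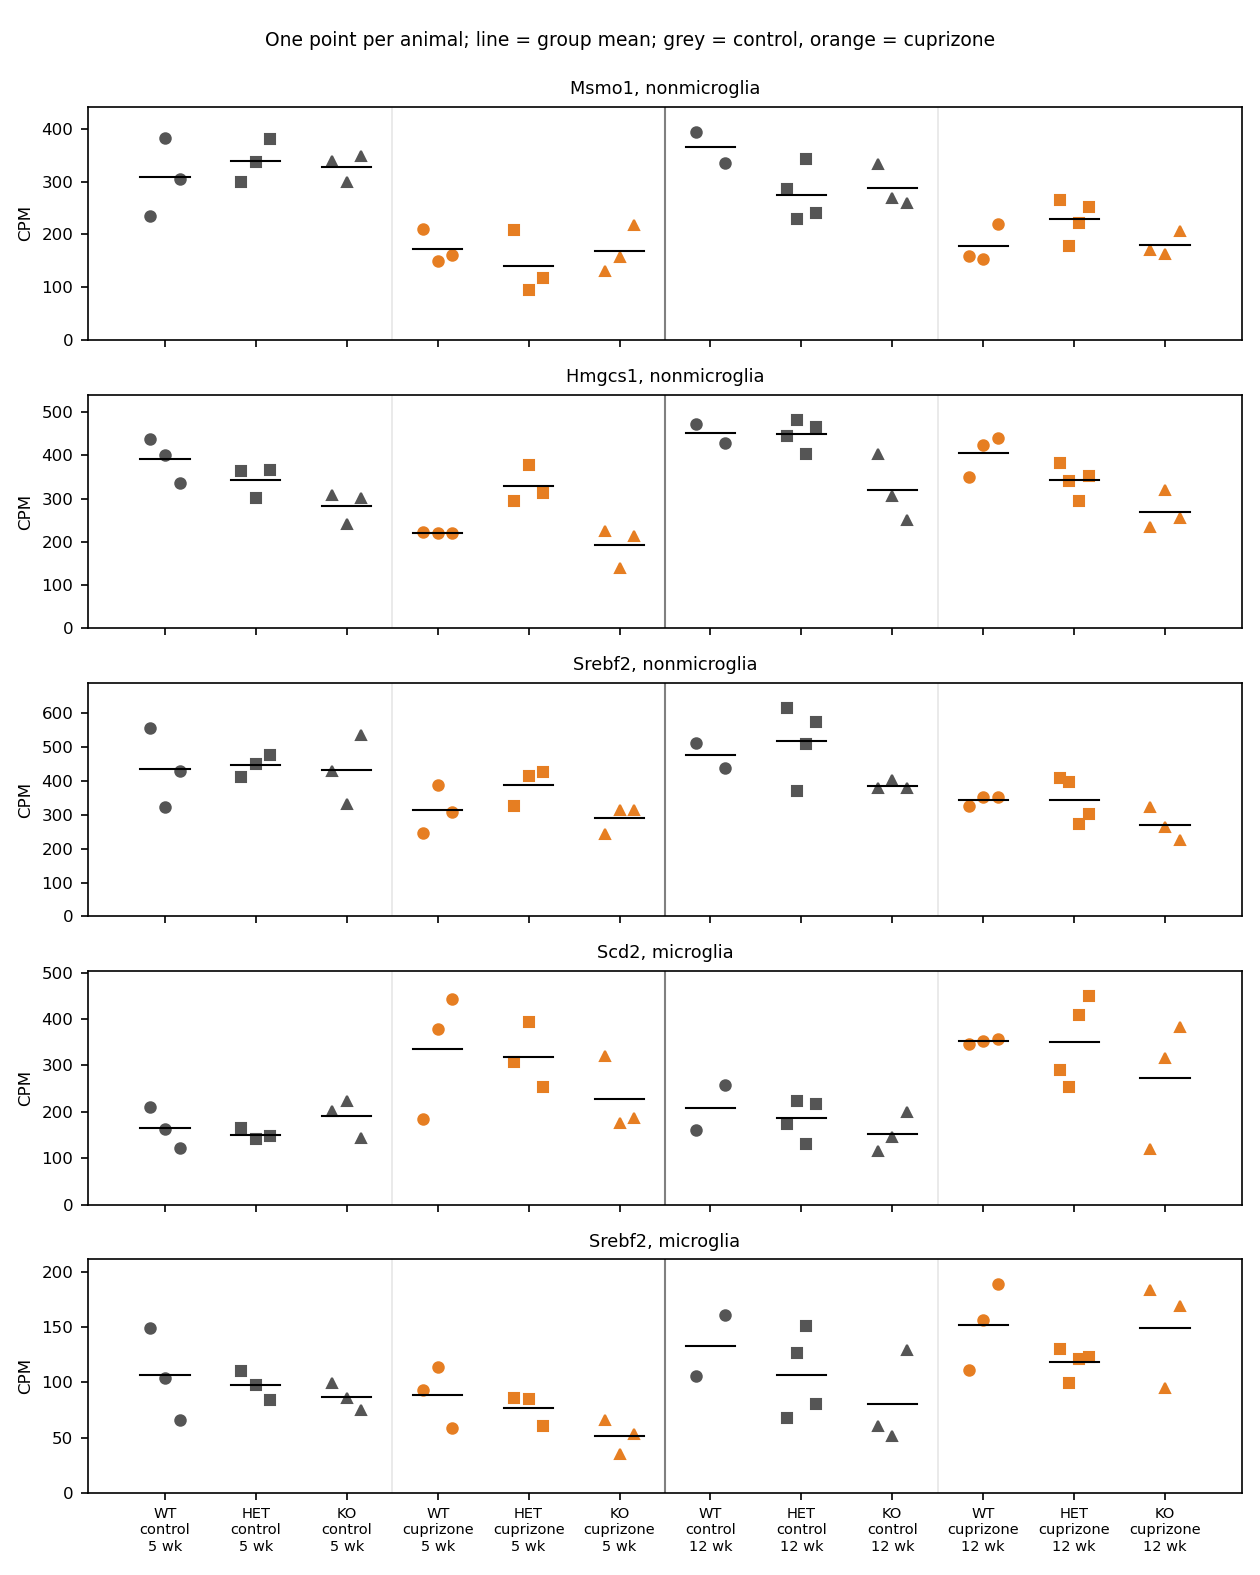
CPM of Msmo1, Hmgcs1 and Srebf2 in nonmicroglia and of Scd2 and Srebf2 in microglia, 1 point per animal, by genotype (circles wild type, squares heterozygous, triangles knockout), diet (grey control, orange cuprizone) and weeks, with group means as lines. Msmo1 after 5 weeks of cuprizone stays at or below 218 CPM, under all controls of that time, and Scd2 in microglia reaches up to 449.8 CPM on cuprizone against at most 258 on control diet.

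In microglia, cuprizone raised Scd2 and no other member was called. At 5 weeks it had 122, 163 and 211 CPM in wild-type, 140.3, 147 and 166 in heterozygous and 145, 203 and 222 in knockout controls. On cuprizone it had 185, 379 and 443 CPM in wild type, 254, 308 and 393 in heterozygotes and 175, 186 and 320.4 in knockouts. Of the 9 cuprizone mice, 6 lay above the highest control value of 222 CPM, and the 3 below it were 1 wild-type and 2 knockout mice. The log2 difference was 0.78 ± 0.18 (edgeR adjusted p = 0.00962).

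At 12 weeks, Scd2 in microglia had 161 and 258 CPM in wild-type, 131, 174, 218 and 222 in heterozygous and 115, 146 and 199 in knockout controls. On cuprizone it had 347, 353 and 356 CPM in wild type, 253, 289, 409 and 449.8 in heterozygotes and 119.7, 317 and 384 in knockouts. A knockout mouse at 119.7 CPM and a heterozygote at 253 CPM lay within the control range, and the other 8 cuprizone mice lay above it. The log2 difference was 0.91 ± 0.19 (edgeR adjusted p = 0.00106), and the calls at both times held in every alternative run. Against it, Scd2 was at 2172 to 7099.7 CPM in nonmicroglia. In the same microglia libraries the mature oligodendrocyte markers summed to 366 to 997 CPM on control diet and 324 to 759 on cuprizone at 5 weeks, and to 387 to 1109 and 277 to 1386 at 12 weeks. The precursor markers summed to 6.97 to 34.2 and 8.87 to 97.9 CPM at 5 weeks and to 6.45 to 39.3 and 26.1 to 81.9 at 12 weeks. The endothelial markers, 7 in number, summed to 43.4 to 212 and 70.8 to 347 CPM at 5 weeks and to 50.6 to 184 and 88.6 to 502 at 12 weeks. RNA integrity numbers of microglia were 8.7 to 9.7 on control diet and 8.7 to 9.9 on cuprizone at 5 weeks, and, where the labels gave one at 12 weeks, 8.1 to 9.6 in 3 control and 7.3 to 8.1 in 3 cuprizone libraries. The part of these markers and of RNA integrity in the rise of Scd2 was not tested.

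Scd2 was 1 of 28 members called higher in microglia at each time, where 1.33% of 14087 genes were called higher at 5 weeks and 2.04% at 12 weeks. No member was called lower. DESeq2 and limma each called 1 member at each time. At an unadjusted p of 0.05, 2 of 28 members passed at 5 weeks and 3 at 12 weeks, where 11.7% and 14.7% of all genes did. The members' median was 0.09 at 5 weeks, against 0.00 over all genes, and 0.29 at 12 weeks, against 0.01. The sum of the members other than Scd2 was 767 to 1062 CPM on control diet and 677 to 1021 on cuprizone at 5 weeks, and 766 to 1066 and 613 to 1114 at 12 weeks, and the diets overlapped at both times.

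Apart from Scd2, no enzyme was called in microglia. Msmo1 had -0.18 ± 0.29 at 5 weeks and -0.00 ± 0.29 at 12 weeks, Acly 0.22 ± 0.22 and 0.32 ± 0.23, and Ggps1 -0.19 ± 0.22 and -0.39 ± 0.22. Many others had few counts. Sqle, Fdft1, Fdps, Lss, Mvk, Mvd, Dhcr7, Tm7sf2, Stard4, Fads2 and Insig1 had median levels of at most 6.94 CPM in each diet and time in microglia. Srebf2 in microglia had 66.0 to 149.9 CPM on control diet and 35.0 to 114 on cuprizone at 5 weeks, and 51.5 to 161 and 94.8 to 189 at 12 weeks, with overlap at both times. Its differences were -0.43 ± 0.22 at 5 weeks and 0.50 ± 0.22 at 12 weeks, and the change between them was 0.93 ± 0.31 (edgeR adjusted p = 0.586).

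**Figure D3:**
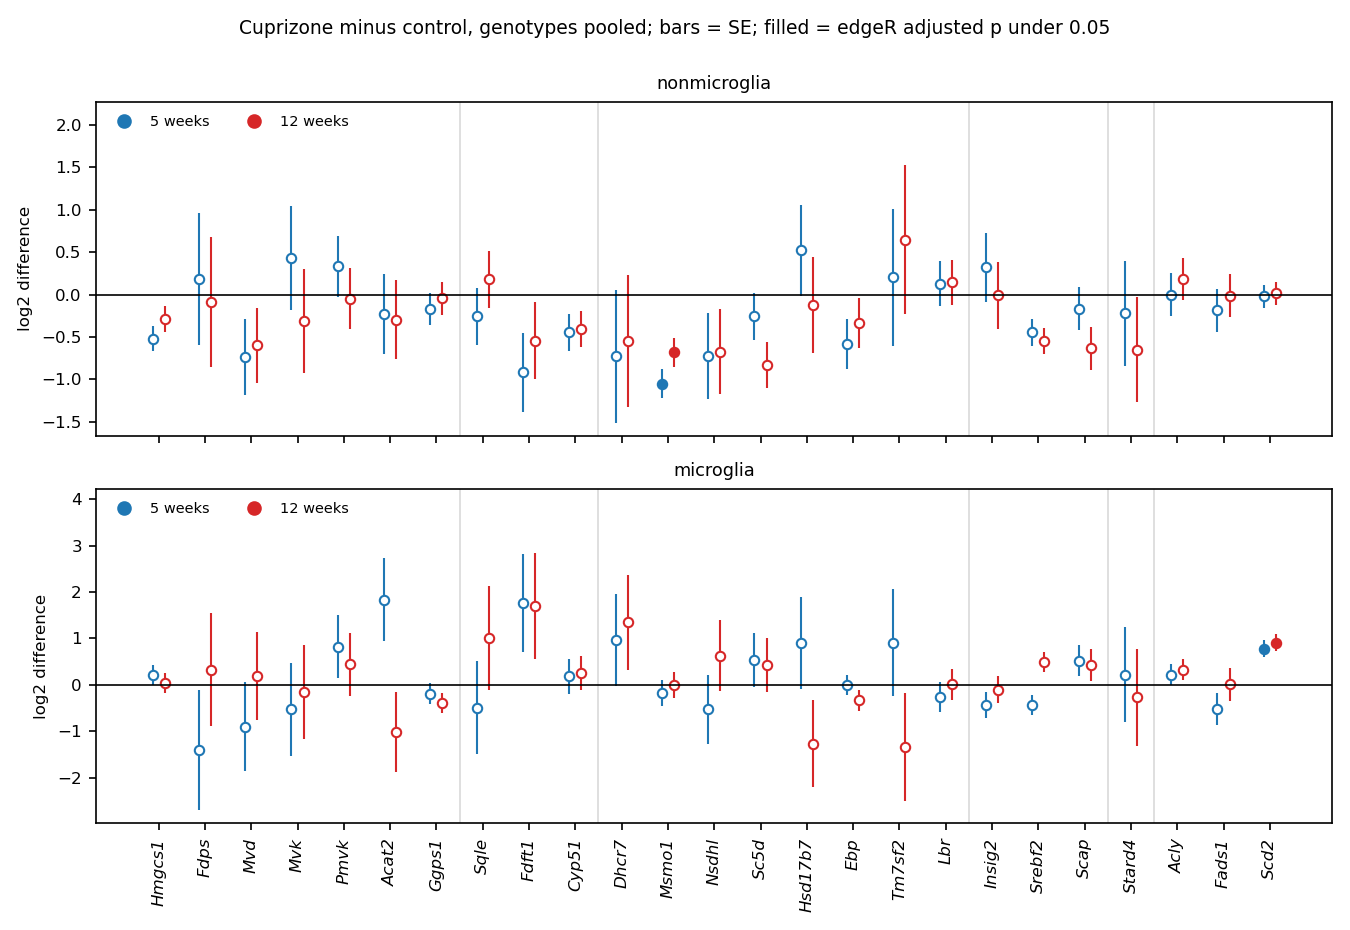
Log2 difference, cuprizone minus control with genotypes weighted equally, for the 25 members counted in every group, in nonmicroglia (top) and microglia (bottom) at 5 weeks (blue) and 12 weeks (red), with SE bars. Filled points passed an adjusted p of 0.05: Msmo1 in nonmicroglia at -1.05 and -0.68, and Scd2 in microglia at 0.78 and 0.91.

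Whether the diet acted differently in the 2 fractions was tested in a joint fit of all 74 libraries, as the microglial difference minus the nonmicroglial one. At 5 weeks no member was called by edgeR, where 0.429% of 18408 genes were, and DESeq2 called 3 and limma 1. At an unadjusted p of 0.05, 5 of 28 members passed, all higher, where 7.93% of all genes did in either direction. At 12 weeks 2 members were called higher, where 0.505% of genes were, and DESeq2 called 3 and limma 2. There 8 members passed an unadjusted p of 0.05, all higher, where 8.78% of all genes did in either direction. Srebf2 differed by 1.02 ± 0.27 (edgeR adjusted p = 0.0397), with 0.50 in microglia against -0.55 in nonmicroglia. Scd2 differed by 0.90 ± 0.24 (edgeR adjusted p = 0.0485), with 0.91 against 0.01. Both calls were close to the threshold, and limma did not call Scd2 (0.70, adjusted p = 0.840), while DESeq2 called both. With both fractions of an animal as a block, Srebf2 had 1.05 with an edgeR adjusted p of 0.0945 and Scd2 0.81 with 0.0342, and without the libraries that stood apart Srebf2 had 1.03 with 0.0875.

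Leaving out 1 animal lost the Srebf2 call in 12 and the Scd2 call in 13 of 19 runs. Srebf2 was lost without animal 1040, 1744, 1748, 1932, 3917, 6296, 7674, 8043, 8635, 9463, 9469 or 981, with differences of 0.82 to 1.03 and adjusted p-values up to 0.293. Scd2 was lost without 1744, 1746, 1932, 3917, 6296, 7674, 8043, 8635, 944, 9463, 9469, 9542 or 981, with differences of 0.51 to 0.94 and adjusted p-values up to 0.588. At 5 weeks the difference was 0.87 ± 0.31 for Msmo1 (edgeR adjusted p = 0.272), 0.72 ± 0.27 for Hmgcs1 (0.321), 0.78 ± 0.24 for Scd2 (0.161) and -0.01 ± 0.26 for Srebf2.

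Within single genotypes the diet comparison had few animals. In microglia Scd2 in heterozygotes at 12 weeks was the only member called, at 1.06 ± 0.28 (edgeR adjusted p = 0.0178), where 1.88% of genes were called higher. That call was lost without animal 6296, 7674, 944 or 9469, with differences of 0.93 to 1.01 and adjusted p-values up to 0.0986. Microglial Scd2 had differences of 1.03 ± 0.32 in wild type, 1.03 ± 0.32 for heterozygotes and 0.28 ± 0.31 for knockouts at 5 weeks, and 0.85 ± 0.36 in wild type and 0.81 ± 0.32 in knockouts at 12 weeks, none called. At an unadjusted p of 0.05, 1, 5 and 0 members passed in wild type, heterozygotes and knockouts at 5 weeks and 3, 2 and 3 at 12 weeks. Of all genes, 6.82%, 8.15% and 6.71% passed it at 5 weeks and 10.9%, 13.5% and 7.44% at 12 weeks. DESeq2 and limma called 1 member each, in heterozygotes at 12 weeks. The background was 0.142%, 0.277% and 0.0568% of genes called in wild type, heterozygotes and knockouts at 5 weeks, and 0.958% in wild type and 0.0284% in knockouts at 12 weeks.

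In nonmicroglia edgeR called no member within a genotype. The background there was 0.0414%, 0.0591% and 0.0296% of genes in wild type, heterozygotes and knockouts at 5 weeks and 0.0828%, 0.142% and 0.0355% at 12 weeks. Msmo1 had -0.83 ± 0.30, -1.32 ± 0.30 and -0.997 ± 0.30 in the 3 genotypes at 5 weeks, and -1.07 ± 0.33, -0.25 ± 0.26 and -0.72 ± 0.30 at 12 weeks, in that order. All 6 estimates were negative. At an unadjusted p of 0.05, 2, 1 and 4 members passed at 5 weeks and 2, 3 and 3 at 12 weeks. Of all genes, 5.87%, 4.83% and 2.89% passed it at 5 weeks and 6.05%, 8.90% and 5.25% at 12 weeks. DESeq2 called 1 member in each genotype at 5 weeks and 2, 0 and 0 at 12 weeks, and limma called 1 in heterozygotes at 5 weeks and none in the others.

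Knockout was compared with wild type on each diet to see whether loss of Trem2 moved the pathway. No member was called by edgeR, DESeq2 or limma in either fraction. In microglia 0.0142% of genes were called on control diet, 0.0781% after 5 weeks and 0.44% after 12 weeks of cuprizone. There 0, 1 and 1 members passed an unadjusted p of 0.05, where 5.25%, 5.14% and 9.85% of all genes did. In nonmicroglia the background was 0.00591%, 0% and 0% of genes called. Members passing the unadjusted p numbered 1, 0 and 2, where 4.91%, 2.45% and 4.28% of all genes did. In microglia 17, 20 and 15 of 28 members were lower in knockouts on control diet and after 5 and 12 weeks of cuprizone, with medians of -0.15, -0.53 and -0.06, against 45.2%, 50.4% and 50.2% of all genes and medians of 0.07, -0.01 and -0.00. In nonmicroglia 14, 13 and 11 were lower, with medians of 0.00, 0.09 and 0.08. Of all genes there, 45.8%, 51.3% and 49.8% were lower, with medians of 0.06, -0.02 and 0.00. These comparisons were imprecise for most members, and a p above the threshold does not show that the genotypes were alike.

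Differences between genotypes are given for the members described above. After 12 weeks of cuprizone, knockout minus wild type was -0.48 ± 0.31 for Scd2 and 1.03 ± 0.39 for Ggps1 in microglia, the last with the smallest member adjusted p of 0.358 by edgeR. After 5 weeks it was -0.53 ± 0.31 for Scd2 and -0.79 ± 0.38 for Srebf2 in microglia. In nonmicroglia Msmo1 had -0.04 ± 0.30 at 5 weeks and 0.05 ± 0.30 at 12 weeks.

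**Figure D4:**
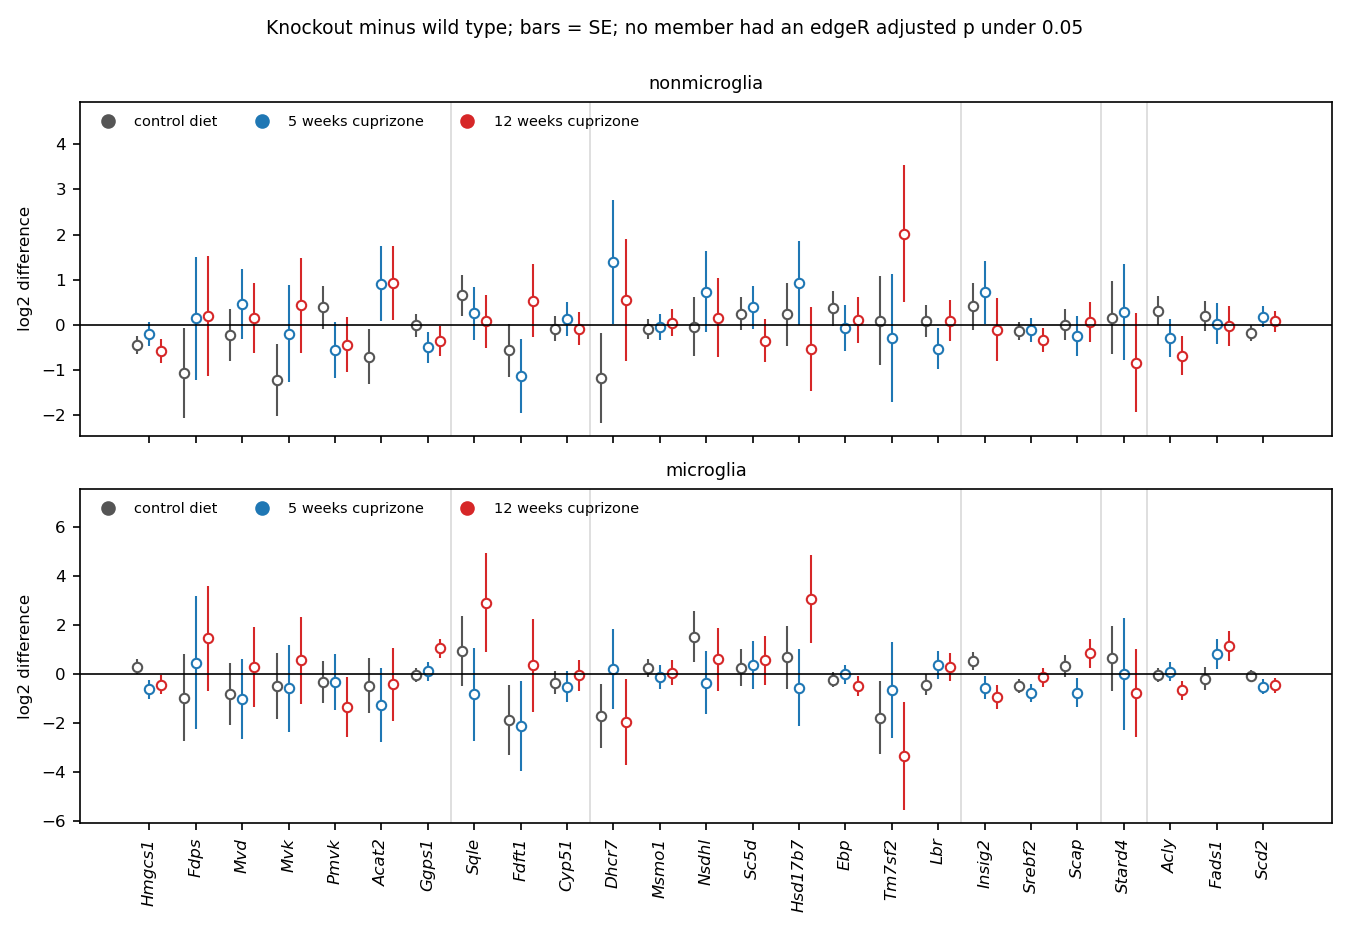
Log2 difference, knockout minus wild type, for the same 25 members in nonmicroglia (top) and microglia (bottom) on control diet (grey), after 5 weeks (blue) and after 12 weeks of cuprizone (red), with SE bars. No point passed an adjusted p of 0.05, and Msmo1 in nonmicroglia lies at -0.04 and 0.05 after 5 and 12 weeks of cuprizone.

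The test of whether the diet effect itself differed between knockout and wild type called no member by edgeR, DESeq2 or limma. The background was 0.0071% and 0.0284% of genes in microglia and 0% and 0% in nonmicroglia at 5 and 12 weeks. Members passing an unadjusted p of 0.05 numbered 0 and 2 in each fraction. Of all genes, 4.54% and 10.6% passed it in microglia and 3.90% and 5.62% in nonmicroglia. Scd2 in microglia had -0.76 ± 0.45 at 5 weeks and -0.04 ± 0.47 at 12 weeks. Insig2 in microglia had the smallest member adjusted p, with -2.02 ± 0.75 at 12 weeks (edgeR adjusted p = 0.294). Msmo1 in nonmicroglia had -0.16 ± 0.42 and 0.35 ± 0.44.

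Time on control diet and the change of the diet effect with time gave no call among members by edgeR. In nonmicroglia 0.236% of genes differed between 12 and 5 weeks of control diet, and Scd2 came nearest, at 0.50 ± 0.14 (edgeR adjusted p = 0.0933). Its range moved from 2172 to 4307 CPM up to 2857 to 7099.7 CPM, with overlap, and DESeq2 called it (adjusted p = 0.0456) while limma called none. In microglia 0.0071% of genes differed with time, and Acat2 came nearest, at 2.37 ± 0.91 (edgeR adjusted p = 0.474), with DESeq2 and limma calling 0 members. At an unadjusted p of 0.05, 1 member passed in each fraction, where 7.94% of all genes did in microglia and 10.6% in nonmicroglia. For the change of the diet effect with time, 0.0071% of genes were called in microglia and 0.00591% in nonmicroglia. DESeq2 and limma called no member. In the same order, 2 and 0 members passed an unadjusted p of 0.05, where 5.52% and 4.23% of all genes did.

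Other genes of the pathway came from lists beside the members, chosen with earlier results of these data known. In wild-type controls, of 9 tested further sterol and SREBP genes 4 were lower and 1 was higher in microglia, with Mbtps2, a protease that cuts SREBPs, at 2.08 ± 0.71. Of 9 other lipogenic SREBP targets 7 were lower and 1 higher, with Me1, the malic enzyme, at -5.77 ± 0.76 and Elovl6, a fatty acid elongase, at -5.04 ± 0.75. Of 16 genes of cholesterol export and LXR response, 4 were higher and 2 lower in microglia. These counts stand beside 17.8% of all genes lower and 11.7% higher. Neither of the first lists had a called gene for cuprizone in microglia at either time.

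Of 15 tested genes of cholesterol export and LXR response, 6 rose with cuprizone in microglia at 5 weeks and 5 at 12 weeks, where 1.33% and 2.04% of all genes rose, and none was called lower. Their median difference was 0.55 and 0.82, against 0.00 and 0.01 over all genes. Because earlier results were known when the list was chosen, these counts and medians describe its genes and do not test the pathway. Apoc1, a lipoprotein component, had 4.88 ± 0.87 and 5.71 ± 0.96, and Ch25h, which makes 25-hydroxycholesterol, had 3.47 ± 0.73 at 5 weeks. The size for Apoc1 is uncertain, with 8.93 ± 1.84 and 9.20 ± 2.33 in wild type alone. Its levels are not given here, and control groups near 0 counts could inflate such fits. Apoe, the main brain lipid carrier, had 3.23 ± 0.16 at 12 weeks, and after 12 weeks of cuprizone the knockout microglia had less of it than the wild-type ones, by -2.12 ± 0.26 (edgeR adjusted p = 3.10e-07). Soat1, which esterifies cholesterol, was lower there by -1.28 ± 0.32 (edgeR adjusted p = 0.0493). In nonmicroglia the 1 called gene of these 3 lists at 5 weeks was Mid1ip1, an activator of acetyl-CoA carboxylase, at 0.99 ± 0.18, and no gene of the lists was called at 12 weeks.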

How the data were processed

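Gene counts deposited by the authors for 74 libraries (3' tag sequencing, 1 library per animal and fraction, 37 animals) were used as they stood. Per the submitters' processing notes, the tools were STAR, FastQC 0.11.5, R 3.4.3 and MultiQC, with the genome build GRCm38.p6. Which program counted the tags, with which annotation and strand setting, and whether molecular identifiers were used, is not given in the sources used here. Libraries held 1043961 to 3945694 counts, which limits precision for low genes.

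CPM are counts over the library total, on the usual scale. Tests used edgeR 4.0.16 (R 4.3.3) quasi-likelihood fits with TMM scaling and a filter at a minimum count of 10, with 1 mean per group and sex as covariate, in each fraction and jointly. Calls are adjusted p-values under 0.05 over all genes. SEs are the log2 difference divided by the root of F. Alternatives were DESeq2 1.42.0, limma 3.58.1 voom with quality weights, DESeq2 size factors in edgeR, no filter, no sex term, each animal left out, the animal as a block, and, chosen after seeing the data, leaving out libraries that stood apart (first component above 30). Runs without 1 animal redid the scaling and the fit but kept the filter and the dispersion trend of all libraries. The animal left out thus still shaped those 2 settings. Leaving out a wild-type control of 12 weeks left 1 mouse in that group. Fitted differences of Fads2, Insig1, Lss and Idi1 are not printed, because each was at 0 in a whole group.

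Members and lists were chosen with earlier results of these data known. All 29 members are accounted for by role, those given with their levels in every library or group range are, in each comparison, the called members with the 3 largest absolute differences, and lists are given by counts with up to 2 called genes of largest absolute change. Levels of Hmgcs1, Msmo1, Srebf2, Ebp and Trem2 were added after their values were seen. Both fractions came from the same animals, so the animal pairs them. The correlation of their deviations from group means ran from -0.12 to 0.28 over 37 animals (median 0.0211). No pair of libraries agreed within sampling noise (lowest chi-square per degree of freedom 8.96 over 2701 pairs). On simulated counts for the 5-week diet comparison, 20 of 94 genes changed 2-fold and 52 of 97 changed 4-fold were called in microglia (12975 genes), and 15 of 97 and 35 of 93 in nonmicroglia (15764 genes).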

Additional observations from a re-analysis of the deposited data

Results flagged for a closer look

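In 112 sets of 4 heterozygous mice at 12 weeks, 1 per member, fraction and diet, 12 held a mouse far from the other 3, by Dixon's test at its 95% critical value. Chance gives this in about 1 of 20 sets for normal values. That rate does not hold for 5 of the 12 (Fads2, Fdft1, Lss, Mvk and Tm7sf2), where the other 3 mice were at 0 and any mouse with a count stands apart. In microglia on cuprizone, animal 6296 had 41.7 CPM of Acat2 (others 0.693 to 5.28), 16.1 of Insig1 (others 0.693 to 1.21), 0.672 of Fads2 (others 0) and 0.672 of Pmvk (others 22.2 to 24.3). Animal 2476 had 6.07 CPM of Mvk (others 0) and 7.28 of Sqle (others 0.48 to 1.34), animal 1040 had 4.80 of Tm7sf2 (others 0), and animal 9469 had 0 of Nsdhl (others 10.1 to 12.1). In microglia on control diet, animal 943 had 1.30 CPM of Fdft1 and animal 9463 had 1.42 of Lss, where the others had 0. In nonmicroglia, Acly was at 37.2 CPM in animal 944 on control diet (others 68.8 to 73.3) and at 34.3 in animal 9469 on cuprizone (others 79.8 to 87.3).

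The effect of 12 weeks of cuprizone differed between microglia and nonmicroglia by 1.02 for Srebf2 and 0.90 for Scd2 (log2, joint edgeR test, adjusted p = 0.0397 and 0.0485). Neither call was stable: with the animal as a block Srebf2 had an adjusted p of 0.0945, limma gave 0.840 for Scd2, and leaving out single animals lost Srebf2 in 12 and Scd2 in 13 of 19 runs.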

How the results depend on the processing

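Over 34 comparisons, 548 of 606 alternative counts of called members stayed within 1.5 times the reported count. A count of 0 that stayed at 0 was included as unchanged, and most comparisons had a reported count of 0. The total therefore says little about the comparisons that had calls. In nonmicroglia, DESeq2 called 2 members and limma 2 for cuprizone at 5 weeks, and DESeq2 3, limma 2 and no filter 0 at 12 weeks. For time on control diet there, DESeq2 and no filter called 1 each. Within genotypes of nonmicroglia at 5 weeks, DESeq2 called 1 in each genotype, limma and the fit without libraries that stood apart 1 in heterozygotes, and DESeq2 2 in wild type at 12 weeks. For the difference of diet effects between fractions, DESeq2 size factors, limma, no filter and leaving out those libraries gave 1 and DESeq2 3 at 5 weeks, and no filter and leaving out those libraries gave 1 at 12 weeks. With the replicate block, which pairs the fractions of an animal, 1 member was called at 12 weeks; it changed no other count beyond 1.5 times. Leaving out single animals gave 8 to 12 calls between fractions on cuprizone, 0 to 2 for the difference of diet effects at 12 weeks and 0 to 1 at 5 weeks. It gave 0 to 1 in microglia of heterozygotes at 12 weeks, and 0 to 1 in nonmicroglia for knockout against wild type on control diet, cuprizone at 12 weeks in all and in wild type, cuprizone at 5 weeks in heterozygotes, and time.

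Of 1721 alternatives for single genes, 87 lost a call and 23 gained one. Another 51 changed sign, none of them of a called value. Msmo1 in microglia at 12 weeks was 0.13 without the libraries that stood apart, and -0.18 to 0.14 without single animals. Scd2 in microglia, knockout against wild-type diet effect at 12 weeks, was 0.0714 with DESeq2 size factors and 0.0710 with DESeq2, and -0.33 to 0.32 without single animals. Scd2 in nonmicroglia at 12 weeks was -0.00750 with DESeq2 size factors, -0.00749 with DESeq2 and -0.00290 without the sex term, and -0.14 to 0.23 without single animals (-0.12 to 0.0559 at 5 weeks). Srebf2 between fractions at 5 weeks was 0.0737 with DESeq2 size factors and 0.0714 with DESeq2, and -0.12 to 0.0820 without single animals. Msmo1 in nonmicroglia, knockout against wild type, was -0.26 to 0.14 at 5 and -0.10 to 0.22 at 12 weeks, and its diet effect differed by -0.38 to 0.0162 at 5 weeks. The cause was not tested. Counts limit precision, and in simulated data 2-fold changes were recovered for 21.3% of genes in microglia and 15.5% in nonmicroglia.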
